A study of Homo sapiens with 24 samples.

Results

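The genes described here are the receptors of retinoic acid, its cytoplasmic carriers and the enzymes that limit its supply: the retinoic acid receptors RARA, RARB and RARG, the retinoid X receptors RXRA and RXRB, the cellular retinoic acid binding proteins CRABP1 and CRABP2, the retinoic acid hydroxylases CYP26A1 and CYP26B1, and the retinaldehyde reductase DHRS3. They were taken by gene symbol, and all 10 were found among the 28307 genes of the count table. RNA was measured in 24 libraries, 3 in each of 8 groups, made of 2 established cancer cell lines (SUM159, from a breast cancer, and SW620, from a colon cancer), 2 sorted populations and 2 treatments. ALDHbr cells have high and ALDHneg cells low aldehyde dehydrogenase activity in a flow cytometry assay. Cells were first kept for 30 h with nifuroxazide (NIF), a nitrofuran antibiotic, or with its vehicle DMSO, and were sorted afterwards, so that each treated population is the one gated after exposure. Each line is a single line per tumour type, no allele or transgene is named for either, and the labels give a stock but no final concentration of NIF.

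Retinol taken up by a cell is oxidised to retinaldehyde and then, by the ALDH1A enzymes whose activity the sort reads, to retinoic acid. Retinoic acid binds RAR proteins, which pair with RXR proteins on DNA at direct repeats of a short hexamer and switch from repression to activation when the ligand is bound. CRABP2 carries retinoic acid to the receptors. The pathway restrains itself, since retinoic acid induces CYP26A1 and CYP26B1, which degrade it, DHRS3, which turns retinaldehyde back into retinol, and RARB, a receptor that is often lost in carcinomas.

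Library totals ran from 30253187 to 43127948 counts. The line labels fitted the expressed markers: 10 mesenchymal genes summed to 6971 to 9096 CPM in SUM159 and to 15.7 to 53.6 CPM in SW620, whereas 10 colon epithelial genes summed to 14229 to 18482 CPM in SW620 and to 483 to 766 CPM in SUM159. ALDH1A1, the dehydrogenase most tied to the sort, stood at 127 ± 25.9 CPM (SD, n = 3) in SUM159 ALDHbr cells against 0.45 ± 0.0553 CPM in ALDHneg cells under DMSO. In SW620 the populations differed far less, at 1397 ± 50.3 CPM in ALDHbr and 956 ± 18.3 CPM in ALDHneg cells, so that the SW620 ALDHneg cells were not free of ALDH1A1 RNA. Through the whole text CPM are reads of a gene scaled to the TMM-adjusted size of its library, log2 fold changes come from edgeR's quasi-likelihood fit, given as estimate ± SE, and a gene is called changed when its p adjusted over all genes tested is under 0.05.

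Because RARB and CYP26A1 are classical targets of the receptors, the stretches ahead of their start sites were read from the RefSeq promoter set (GRCh38.p14). The motif searched was DR5, a direct repeat with 5 bases between 2 hexamers, each of them AGGTCA with A or G allowed as the first and G or T as the third base, on either strand. Of 35116 promoters of the same length, 31 (0.0883%) held it, and 2 of the 20 promoters of the 10 genes did, 1 of RARB and 1 of CYP26A1. The same repeat with 1 base between the hexamers (DR1) was in 46 promoters (0.131%) and with 2 bases (DR2) in 14 (0.0399%), none of them among these 20. The 2 matches are shown within the 250 bases ahead of the start site, 5′ to 3′ along the gene, with the match in capitals; RARB lies at chr3:25428013-25428262 on the plus strand and CYP26A1 at chr10:93073643-93073892 on the plus strand.
RARB: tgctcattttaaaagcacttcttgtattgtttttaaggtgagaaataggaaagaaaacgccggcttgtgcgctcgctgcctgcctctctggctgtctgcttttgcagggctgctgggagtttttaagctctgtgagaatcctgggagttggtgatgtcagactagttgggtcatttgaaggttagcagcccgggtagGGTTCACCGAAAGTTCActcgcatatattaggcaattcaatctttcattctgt
CYP26A1: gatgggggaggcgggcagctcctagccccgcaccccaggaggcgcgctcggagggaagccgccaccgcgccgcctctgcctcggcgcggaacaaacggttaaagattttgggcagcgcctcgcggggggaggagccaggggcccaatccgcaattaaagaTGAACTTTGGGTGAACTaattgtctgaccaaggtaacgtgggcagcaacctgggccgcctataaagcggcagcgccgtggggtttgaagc
The RARB match spans bases -53 to -37 from the start site. The CYP26A1 match spans bases -90 to -74 and reads on the opposite strand. The 2 genes with this element were not those with the most reads: RARB had almost none, and CYP26A1 had few in SW620 and fewer in SUM159.

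How much of each gene was there under DMSO differed strongly between the lines. Scaled per kilobase of the reference transcript, the order in SUM159 ALDHbr cells was RXRA (31.8 ± 0.953 CPM per kb), RARA (27.5 ± 4.27), DHRS3 (15.0 ± 1.84), RXRB (14.6 ± 0.713), RARG (9.92 ± 0.945) and CRABP2 (4.29 ± 0.303). The libraries of RXRA and RARA overlapped on this scale, as did those of DHRS3 and RXRB. In SW620 ALDHbr cells the order was CRABP2 (357 ± 41.9 CPM per kb), RARG (47.4 ± 1.73), RXRA (33.9 ± 0.81), DHRS3 (30.0 ± 2.35), RARA (15.1 ± 1.46) and RXRB (14.6 ± 0.451), and there the libraries of RARA and RXRB overlapped. With the length of all exons in place of the reference transcript, the orders changed in part: RARA (19.0 CPM per kb) stood above RXRA (14.6) and RXRB (10.8) above DHRS3 (9.38) in SUM159 ALDHbr cells, and DHRS3 (18.8) above RXRA (15.5) and RXRB (10.8) above RARA (10.4) in SW620 ALDHbr cells. The leading RAR was RARA in SUM159 and RARG in SW620 with either length.

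CRABP2 separated the lines most. Its level was 4.17 ± 0.295 CPM in SUM159 ALDHbr cells and 348 ± 40.8 CPM in SW620 ALDHbr cells under DMSO. Over both populations the log2 fold change of SW620 against SUM159 was 5.97 ± 0.08 (62.9-fold). CYP26A1 (3.11 ± 0.50), RARG (2.19 ± 0.05), DHRS3 (1.30 ± 0.08) and RXRA (0.49 ± 0.03) were also higher in SW620 on the log2 scale, and CYP26B1 (-1.61 ± 0.25) and RARA (-0.73 ± 0.07) were lower. CYP26A1 passed the filter on low counts only through SW620 DMSO libraries. In all, 7 of the 8 genes tested were called, where 86.6% of all genes tested were, so the number called says little about these genes in particular. RXRB, at 39.9 to 50.4 CPM in all 24 libraries, was the gene that was not (0.03 ± 0.05, 95% interval -0.08 to 0.13). With scaling by plain library size all these log2 values move down, the median of all genes by 0.16 (from -0.06 to -0.22), and RXRB then turns to the other side (-0.13).

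**Figure D1:**
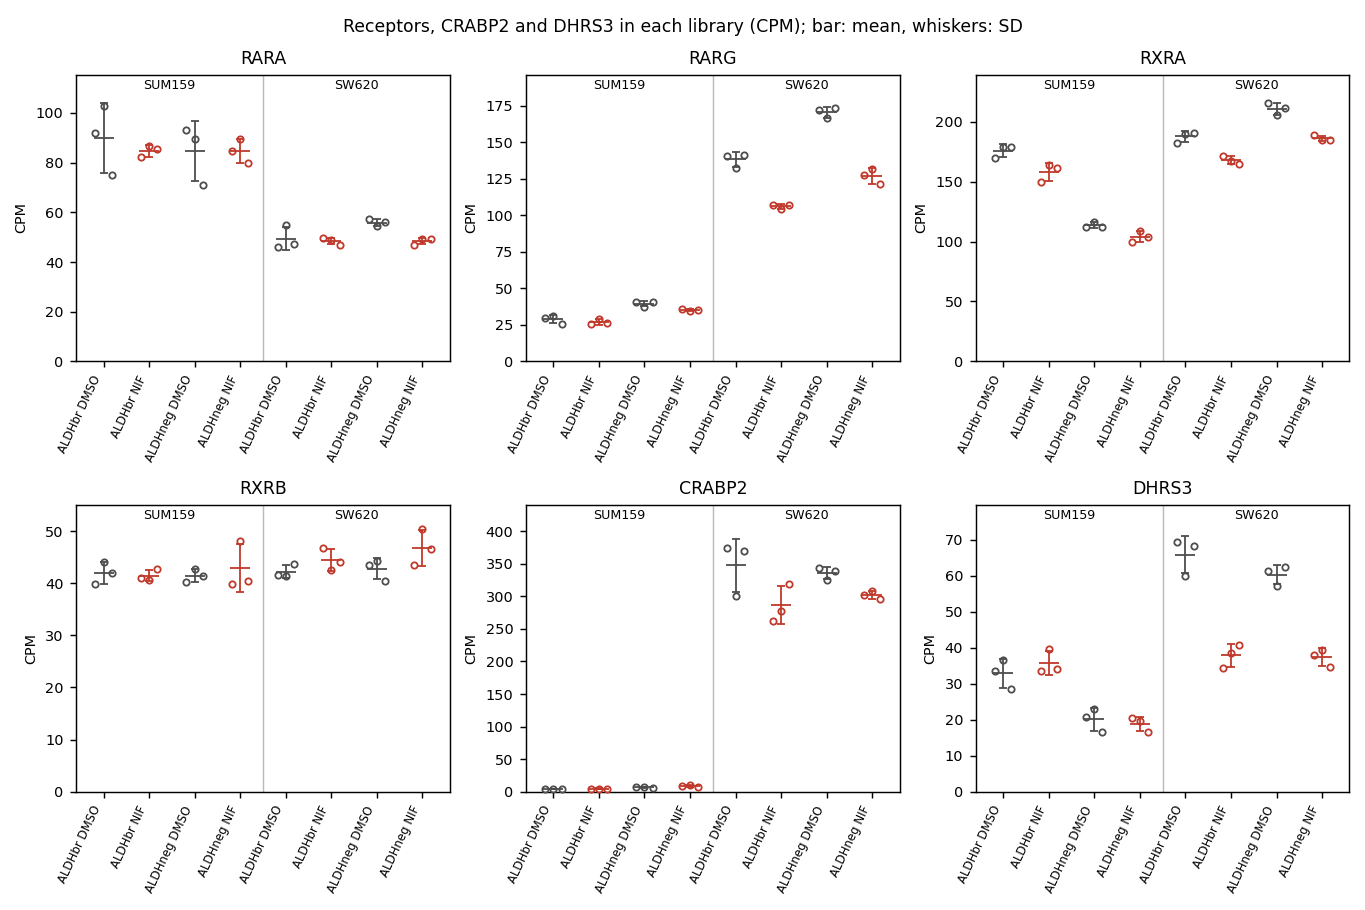
CPM of RARA, RARG, RXRA, RXRB, CRABP2 and DHRS3 in each of the 24 libraries (circles), by population and treatment, with SUM159 on the left and SW620 on the right of each panel. Bars are means and whiskers SD over 3 libraries, DMSO in grey and NIF in red. CRABP2 is at 3.85 to 9.68 CPM in SUM159 and at 263 to 374 CPM in SW620, and DHRS3 and RARG are lower under NIF in both SW620 populations.

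RARB and CRABP1 were close to absent. RARB had a read in 9 of 12 SUM159 libraries, 23 reads in all and at most 8 in 1 library, and in 2 of 12 SW620 libraries, 4 reads in all. RARB-AS1 and TOP2B overlap the RARB locus, and strand use in counting is not given in the sources used here, so these few reads cannot be assigned to RARB with certainty. In SUM159 ALDHneg cells RARB had 4, 2 and 8 reads under DMSO and 1, 0 and 1 under NIF, without overlap, a ratio of NIF to DMSO of 0.141 (95% exact interval 0.0156 to 0.614, counting error only) from 2 against 14 reads. RARB did not pass the filter on low counts, and with no filter this difference was not called (log2 fold change -2.58, adjusted p = 0.373, edgeR). CRABP1 had 1 read in all SUM159 libraries together and 3 in SW620, too few for a comparison.

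Each of the 3 feedback enzymes was called lower under NIF in SW620, DHRS3 in both populations, CYP26A1 in ALDHneg cells and CYP26B1 in ALDHbr cells. CYP26A1 and CYP26B1 passed the filter on low counts in this line mainly through DMSO libraries, so their tests are not independent of those libraries being high. DHRS3, which returns retinaldehyde to retinol, was at 69.6, 60.0 and 68.3 CPM in the ALDHbr libraries under DMSO and at 34.5, 38.6 and 40.7 CPM under NIF. In ALDHneg cells it was at 61.3, 57.3 and 62.5 CPM under DMSO and at 37.9, 39.5 and 34.6 CPM under NIF. All 6 NIF libraries lay below all 6 DMSO libraries. The log2 fold change was -0.80 ± 0.08 in ALDHbr cells (adjusted p = 2.03e-06) and -0.70 ± 0.08 in ALDHneg cells (adjusted p = 5.94e-06 in edgeR's quasi-likelihood test), a loss of 42.7% and 38.5%. In bulk RNA, fewer cells with the transcript and less of it per cell cannot be told apart.

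CYP26A1, the main retinoic acid hydroxylase, had few reads even where it was highest. SW620 ALDHneg libraries held 28, 18 and 22 reads under DMSO and 2, 0 and 4 under NIF, with no overlap. The summed counts, 6 against 68, give a ratio of NIF to DMSO of 0.0876 (95% exact interval 0.0311 to 0.201, counting error only), and the log2 fold change was -3.44 ± 0.52 (adjusted p = 9.64e-05 in edgeR's quasi-likelihood test). In ALDHbr cells CYP26A1 began lower, at 9, 9 and 4 reads under DMSO, and stood at 4, 4 and 5 under NIF, which overlap. There the log2 fold change was -0.56 ± 0.55 with a 95% interval of -1.75 to 0.62, wide enough to hold no change and a sizeable loss alike. The NIF effect in ALDHbr minus that in ALDHneg cells was 2.87 ± 0.83 on the log2 scale and not called (adjusted p = 0.588 in edgeR's quasi-likelihood test), so the populations were not shown to differ.

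CYP26B1, the other hydroxylase, was called lower in ALDHbr cells. ALDHbr libraries held 38, 41 and 31 reads under DMSO and 10, 2 and 2 under NIF, a ratio of 0.145 (0.0766 to 0.253) and a log2 fold change of -2.78 ± 0.59 (adjusted p = 0.00174, edgeR). In ALDHneg cells 2, 18 and 21 reads under DMSO stood against 5, 6 and 6 under NIF. The first DMSO library lay below all NIF libraries there, and the log2 fold change of -1.28 ± 0.66 was not called (adjusted p = 0.134, edgeR). Without that library it was -1.83 and called (adjusted p = 0.00835, edgeR). The difference between the populations, -1.49 ± 0.97, was not called either (adjusted p = 0.955, edgeR).

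**Figure D2:**
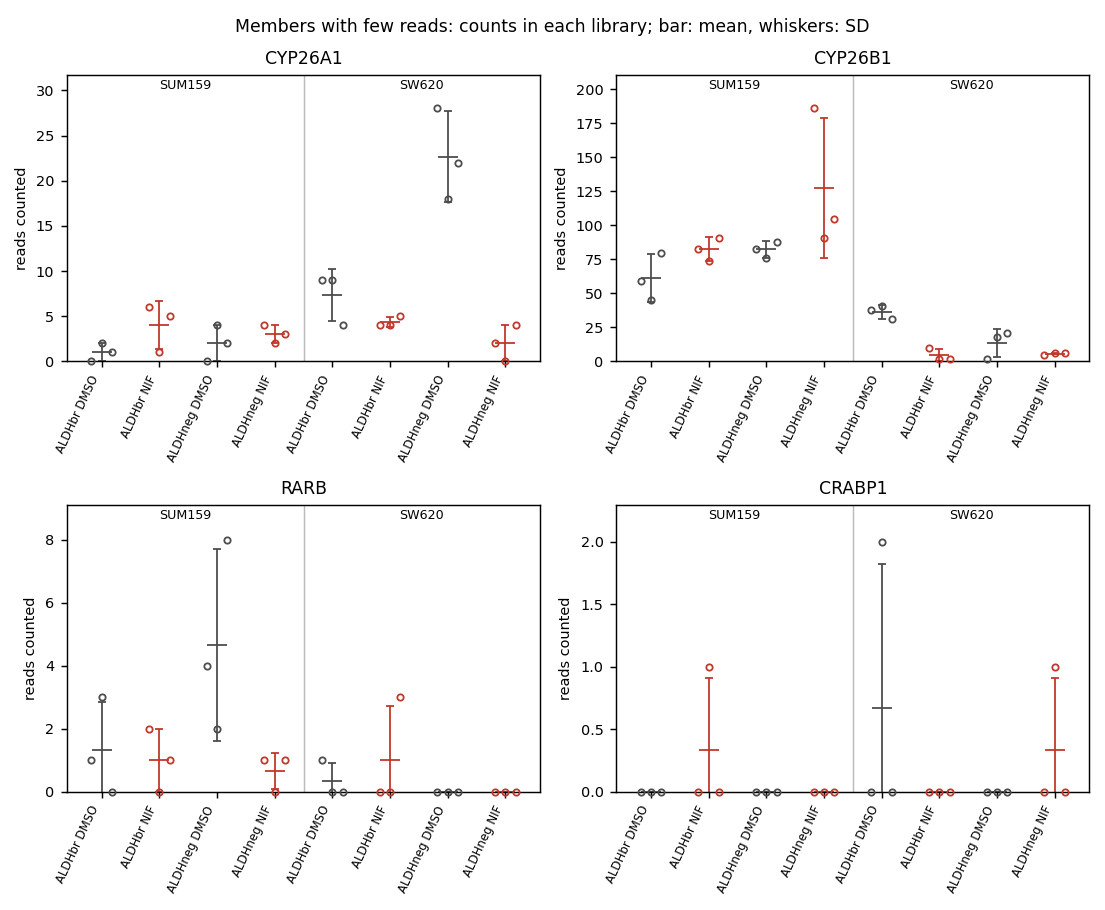
Reads counted for CYP26A1, CYP26B1, RARB and CRABP1 in each library (circles), by population and treatment, with means (bars) and SD (whiskers) over 3 libraries, not scaled to library size. In SW620, CYP26A1 drops from 18 to 28 reads to 0 to 4 in ALDHneg cells and CYP26B1 from 31 to 41 reads to 2 to 10 in ALDHbr cells under NIF; RARB never exceeds 8 reads and CRABP1 never 2.

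Among the receptors, RARG and RXRA fell in both SW620 populations. RARG, the leading RAR of this line, was at 141, 133 and 142 CPM in ALDHbr cells under DMSO and at 107, 104 and 107 CPM under NIF. In ALDHneg cells it was at 172, 166 and 173 CPM under DMSO and at 128, 132 and 121 CPM under NIF. Neither pair of groups overlapped, and the log2 fold changes were -0.39 ± 0.05 and -0.44 ± 0.05 (adjusted p = 2.63e-05 and 6.60e-06, edgeR). RXRA, the shared partner of the RARs, went from 182, 190 and 191 CPM to 172, 168 and 165 CPM in ALDHbr cells and from 215, 206 and 212 CPM to 189, 185 and 185 CPM in ALDHneg cells. These losses were small but without overlap, at -0.16 ± 0.04 and -0.19 ± 0.04 (adjusted p = 0.00821 and 0.00289, edgeR). A fit of the ALDHbr libraries alone did not call the first of them (adjusted p = 0.0774, edgeR).

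RARA fell in SW620 ALDHneg cells, from 57.2, 54.4 and 56.1 CPM to 47.0, 49.1 and 49.2 CPM, without overlap (log2 fold change -0.22 ± 0.06, adjusted p = 0.0139, edgeR). In ALDHbr cells its libraries ran from 46.1 to 54.9 CPM under DMSO and from 46.9 to 49.6 CPM under NIF, a change of -0.03 with a 95% interval of -0.17 to 0.11. The call in ALDHneg cells was lost in 4 of 14 alternatives, 3 of which left out a library (without NIF replicate 1, DMSO replicate 1 or DMSO replicate 3, adjusted p = 0.0605, 0.0705 and 0.059, edgeR). RXRB was not called in either population (0.07 ± 0.07 and 0.12 ± 0.06).

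CRABP2, the carrier that SW620 expresses at high level, was at 374, 301 and 369 CPM in ALDHbr cells under DMSO and at 263, 278 and 319 CPM under NIF. The second DMSO library lay below the highest NIF library. The log2 fold change of -0.28 ± 0.08 was called (adjusted p = 0.0126, edgeR), but not in 4 of 14 alternatives, among them the fits without NIF replicate 1, DMSO replicate 1 or DMSO replicate 3 (adjusted p = 0.0556, 0.0571 and 0.0568, edgeR). In ALDHneg cells all NIF libraries (302, 308 and 296 CPM) lay below all DMSO libraries (344, 326 and 339 CPM), yet the smaller change of -0.16 ± 0.08 was not called (adjusted p = 0.122, edgeR). With scaling by library size it was (-0.22, adjusted p = 0.0198, edgeR).

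Counted together, 5 of the 8 genes tested fell in SW620 ALDHbr cells (RARG, RXRA, CRABP2, CYP26B1 and DHRS3) and 5 of 8 in ALDHneg cells (RARA, RARG, RXRA, CYP26A1 and DHRS3), and none rose. RARG, RXRA and DHRS3 fell in both. These counts include CYP26A1 and CYP26B1, which passed the filter on low counts in this line mainly through DMSO libraries. NIF changed much of the transcriptome of this line: 43.3% of all genes tested were called in ALDHbr and 45.1% in ALDHneg cells, 21.9% and 22.7% as lower. With scaling by library size the lower calls in ALDHneg cells went from 3172 of 6286 to 3957 of 6535. Among the markers tested in this line, 2 of 5 mesenchymal genes rose and 1 fell, and 2 of 10 colon epithelial genes rose and 4 fell in ALDHbr cells (2, 1, 2 and 3 in ALDHneg cells), and their part in these losses was not tested. The median log2 fold change of the 8 genes was -0.33 in both populations, beside a median of -0.01 over all genes tested in each. No gene of the 8 was called in the comparison of the NIF effects between the populations (0.00717% of all genes tested were), and DESeq2 called 0. Of the 8, 1, CYP26A1, had an unadjusted p under 0.05 in edgeR, beside 771 of all 13953 genes tested.

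**Figure D3:**
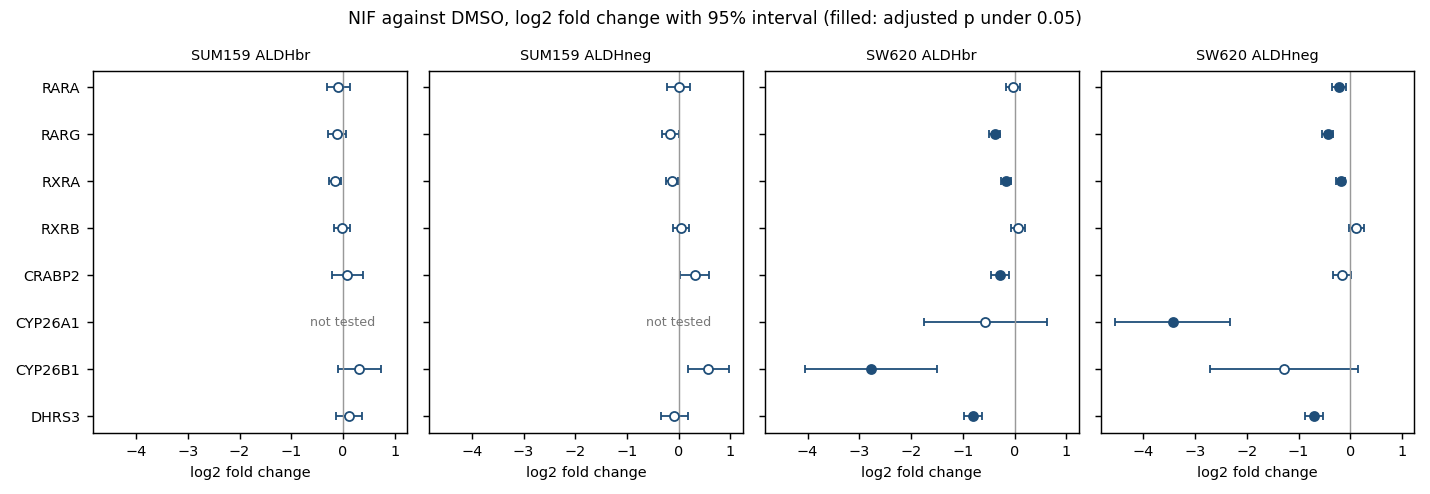
Log2 fold change of NIF against DMSO for the 8 genes with enough reads (points) with 95% intervals (lines), in each line and population; filled points were called at an adjusted p under 0.05 by edgeR. In SW620 5 points are filled in each population and all lie below 0, and in SUM159 none is filled.

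In SUM159 no such loss was called in the fit without a replicate block. Of the 7 genes with enough reads (without RARB, CRABP1 and CYP26A1), edgeR called 0 in ALDHbr and 0 in ALDHneg cells, against 3.16% and 3.30% of all genes tested, and DESeq2 called 0 as well. At an unadjusted p under 0.05 in edgeR there were 1 in ALDHbr cells (RXRA) and 3 in ALDHneg cells (RXRA, CRABP2 and CYP26B1). Over all 14953 genes tested, 2503 in ALDHbr and 2510 in ALDHneg cells had such a p. DHRS3 was at 33.5, 36.7 and 28.6 CPM in ALDHbr cells under DMSO and at 33.7, 39.7 and 34.0 CPM under NIF, a log2 change of 0.11 with a 95% interval of -0.14 to 0.37. In ALDHneg cells its libraries ran from 16.7 to 22.9 CPM under DMSO and from 16.7 to 20.4 CPM under NIF (-0.09, interval -0.35 to 0.17).

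The replicate numbers pair the SUM159 libraries, and with the replicate as a block 1 gene was called in each SUM159 population. Of all 14953 genes tested, 1994 were called with the block in ALDHbr and 1970 in ALDHneg cells. RXRA in ALDHbr cells went from 170, 179 and 179 CPM to 149, 164 and 161 CPM, and its log2 fold change of -0.16 was called with the block (adjusted p = 0.015, edgeR) and not without it (0.134). CYP26B1 in ALDHneg cells had 83, 76 and 88 reads under DMSO and 186, 91 and 105 under NIF, all higher. Its log2 fold change of 0.57 was called with the block (adjusted p = 0.0363, edgeR) and not without it (0.110). The NIF effect in ALDHbr minus that in ALDHneg cells was called for none of the 7 genes by edgeR or DESeq2 (0% of all genes tested by edgeR). Of the 7, 0 had an unadjusted p under 0.05 in edgeR, beside 238 of all 14953 genes tested.

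The NIF effects were then compared between the lines in 1 fit of all 24 libraries, without a replicate block. In ALDHbr cells 3 of 8 genes had a more negative log2 fold change under NIF in SW620 than in SUM159 (23.1% of all genes tested differed in either direction): CYP26B1 (difference -3.10 ± 0.58 on the log2 scale, adjusted p = 3.50e-04), DHRS3 (-0.92 ± 0.15, 7.26e-05) and RARG (-0.28 ± 0.09, 0.0289, edgeR). In ALDHneg cells 5 of 8 did (22.4% of all genes): CYP26A1 (-3.96 ± 1.09), CYP26B1 (-1.85 ± 0.61), DHRS3 (-0.61 ± 0.15), CRABP2 (-0.47 ± 0.14) and RARG (-0.27 ± 0.09). The adjusted p-values were 0.00948, 0.0313, 0.00474, 0.0187 and 0.0323 in edgeR's quasi-likelihood test. CYP26B1, DHRS3 and RARG differed in both populations. RXRA, whose estimate lay below 0 in all 4 comparisons of NIF with DMSO, was not called different between the lines (-0.01 in ALDHbr and -0.05 in ALDHneg cells, with intervals of -0.15 to 0.14 and -0.20 to 0.09). The CYP26A1 difference rests on 0 to 4 reads per SUM159 ALDHneg library, and the gene passed the filter on low counts only through SW620 DMSO libraries.

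The second question was how the ALDHbr cells differ from the ALDHneg cells of the same line. In SUM159, 1 receptor was called higher and 1 lower. RXRA was higher in ALDHbr cells, at 170, 179 and 179 CPM against 112, 116 and 112 CPM under DMSO (log2 fold change 0.63 ± 0.05, 1.55-fold, adjusted p = 6.99e-07, edgeR). RARG was lower, at 29.6, 31.3 and 25.9 CPM against 40.5, 37.4 and 40.6 CPM (-0.45 ± 0.08, adjusted p = 6.91e-04, edgeR). Neither overlapped between the populations, whereas RARA, at 75.1 to 103 CPM against 71.0 to 93.3 CPM, did (0.09, 95% interval -0.14 to 0.31). RXRB was not called either (0.02, -0.14 to 0.17).

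DHRS3 was 1.64-fold higher in SUM159 ALDHbr cells under DMSO (0.72 ± 0.12, adjusted p = 4.71e-04, edgeR), its ALDHbr libraries at 28.6 to 36.7 CPM all above the ALDHneg libraries at 16.7 to 22.9 CPM. CRABP2 was lower, at 3.85, 4.25 and 4.42 CPM against 7.65, 7.30 and 6.32 CPM (-0.76 ± 0.14, adjusted p = 7.89e-04, edgeR). Under NIF the same 4 genes were called in the same direction, at 0.60 (RXRA), 0.92 (DHRS3), -0.40 (RARG) and -0.98 (CRABP2) on the log2 scale. CYP26B1 joined them under NIF, at 83, 74 and 91 reads in ALDHbr against 186, 91 and 105 in ALDHneg cells (-0.58 ± 0.18, adjusted p = 0.0322, edgeR), which touch at 91 reads, though not once scaled to library size (2.00 to 2.25 against 2.79 to 3.92 CPM). Its call was lost in 5 of 14 alternatives, among them each fit without 1 of the 3 ALDHbr NIF libraries (adjusted p = 0.0676 to 0.106, edgeR) and the fit without ALDHneg NIF replicate 1 (0.184). The counts, 4 of 7 under DMSO and 5 of 7 under NIF, stand beside 23.0% and 21.9% of all genes tested. These values come from the fit without a replicate block. With the block, calls over all genes went from 3432 to 5388 under DMSO and from 3281 to 5270 under NIF. RXRA, DHRS3, RARG and CRABP2 kept their calls in all 14 alternatives under either treatment, the block among them. Of 10 mesenchymal markers, 5 were lower in ALDHbr cells and 0 higher under either treatment, so the populations differed in more than ALDH activity. The part of this in the values above was not tested.

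SW620 showed another pattern. RARG was again lower in ALDHbr cells, at -0.30 ± 0.05 under DMSO (adjusted p = 0.00144, edgeR) and -0.25 ± 0.05 under NIF (adjusted p = 0.00667, edgeR), without overlap under either treatment. RXRA, higher in the ALDHbr cells of SUM159, was lower in those of SW620 under DMSO (-0.17 ± 0.04, adjusted p = 0.0252, edgeR). That call was lost in 6 of 14 alternatives, including the fits without ALDHbr DMSO replicate 1 or 3 (adjusted p = 0.102 and 0.0501, edgeR) and without ALDHneg DMSO replicate 1 or 3 (0.0835 and 0.0748). CYP26A1 was lower in ALDHbr cells under DMSO, at 9, 9 and 4 reads against 28, 18 and 22 (-1.58 ± 0.40, adjusted p = 0.0242, edgeR). CYP26A1 passed the filter on low counts in this line through those ALDHneg DMSO libraries. Without ALDHbr DMSO replicate 1 or 3, or ALDHneg DMSO replicate 1 or 3, it was not called (adjusted p = 0.0793, 0.112, 0.089 and 0.0748, edgeR).

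CYP26B1 leaned the other way, with 38, 41 and 31 reads in SW620 ALDHbr against 2, 18 and 21 in ALDHneg cells under DMSO (1.44 ± 0.48, adjusted p = 0.066, edgeR), without overlap but not called. DHRS3 (0.13, 95% interval -0.04 to 0.29) and CRABP2 (0.05, -0.13 to 0.23) were not called either. Of the 8 genes tested 3 were called under DMSO, beside 11.3% of all genes, and 1 under NIF, beside 6.67%. Leaving out ALDHbr DMSO replicate 2 raised the calls over all genes under DMSO from 1577 to 5487, and then RARA was called too (-0.27, adjusted p = 0.00166, edgeR). Among the markers tested in SW620, 3 of 5 mesenchymal ones were lower and 3 of 10 colon epithelial ones higher in ALDHbr cells under DMSO, with 0 in the other direction, and their part in these values was not tested.

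**Figure D4:**
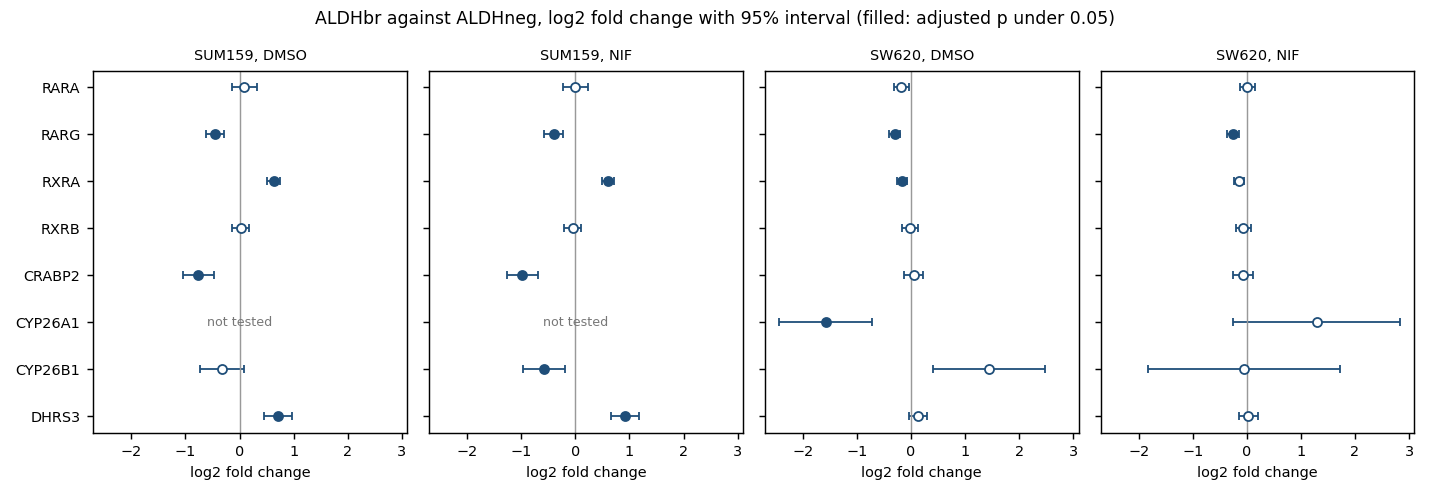
Log2 fold change of ALDHbr against ALDHneg cells for the same 8 genes (points) with 95% intervals (lines), in each line and treatment; filled points were called at an adjusted p under 0.05 by edgeR. RXRA lies at 0.63 and 0.60 in SUM159 and at -0.17 and -0.14 in SW620, and RARG lies below 0 in all 4 panels.

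The rest of the pathway was followed through 6 lists with 54 genes, of which 34 were tested in SUM159 and 41 in SW620. In SW620, NIF changed 22 of the 41 in each population, 10 higher and 12 lower, beside the 43.3% (ALDHbr) and 45.1% (ALDHneg) of all genes tested that were called. Of these, 21 were called in the same direction in both (12 lower, 9 higher). The median log2 fold change over the lists was 0.04 in ALDHbr and -0.04 in ALDHneg cells, so the lists as a whole did not move one way, and with so many genes called the counts say little about these lists in particular.

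Both retinaldehyde dehydrogenases tested in SW620 fell. ALDH1A3, the enzyme that makes retinoic acid in many epithelial cancers, went from 146 ± 6.17 CPM to 52.8 ± 2.18 CPM in ALDHbr cells and from 188 ± 4.70 CPM to 51.0 ± 2.29 CPM in ALDHneg cells (log2 fold change -1.47 ± 0.06 and -1.89 ± 0.06). ALDH1A1 fell by 0.46 and 0.71 on the log2 scale. Among 11 oxidoreductases tested, DHRS9, a retinol dehydrogenase, rose most, from 7.98 ± 1.24 to 70.0 ± 3.59 CPM in ALDHbr cells (3.13 ± 0.09) and by 2.92 ± 0.09 in ALDHneg cells. AKR1B10, an aldo-keto reductase that reduces retinaldehyde, rose by 1.98 and 1.81. AKR1C3, of the same family, was called higher in both populations too. It went from 160 ± 13.3 to 610 ± 54.3 CPM in ALDHbr and from 145 ± 7.53 to 544 ± 19.8 CPM in ALDHneg cells. In all 5 of the 11 rose and 2 fell in ALDHbr cells and 4 rose and 2 fell in ALDHneg cells, the lower ones being RDH11 (-0.40 and -0.36) and DHRS4 (-0.26 and -0.31).

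Of 13 tested genes described as induced by retinoic acid, 5 fell and 2 rose in SW620 ALDHbr cells and 5 fell and 3 rose in ALDHneg cells, where 43.3% and 45.1% of all genes tested were called and 21.9% and 22.7% were lower. RARRES1, named as a retinoic acid receptor responder, was lowest, from 11.7 ± 0.73 to 2.49 ± 0.692 CPM in ALDHbr cells and from 8.14 ± 0.876 to 1.20 ± 0.276 CPM in ALDHneg cells (-2.24 ± 0.16 and -2.76 ± 0.18). RARRES2, which encodes the chemokine-like protein chemerin, fell by 1.15 and 1.00 on the log2 scale. On the other side, ICAM1, an adhesion molecule, rose by 0.68 and 0.77, and DUSP6, a phosphatase of ERK, by 0.47 and 0.63. The median over the 13 was -0.05 in ALDHbr and -0.37 in ALDHneg cells.

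The other lists held fewer tested genes than the oxidoreductases and the induced genes. Over all genes tested, 43.3% were called in ALDHbr and 45.1% in ALDHneg cells. STRA6, the cell surface receptor for retinol bound to RBP4, fell by 0.96 and 0.86, and RBP4, the carrier of retinol in blood, rose by 0.73 and 1.05 on the log2 scale, with 2 of 3 genes of uptake and storage called in each population. NRIP1, a corepressor of nuclear receptors, fell by 0.92 and 1.21 and was the 1 called of 8 coregulators. Of 4 other receptors and binding proteins, PPARD, a nuclear receptor that can bind retinoic acid (0.76 and 0.92), and RORA, an orphan receptor (1.63 and 2.10), rose, and FABP5, the carrier that serves PPARD, fell (-0.69 and -0.64). RORA had few reads, 23 under DMSO and 63 under NIF in all ALDHbr libraries, and 41 and 181 in all ALDHneg libraries. It passed the filter on low counts in this line mainly through NIF libraries, so its test against DMSO is not independent of those libraries being high.

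**Figure D5:**
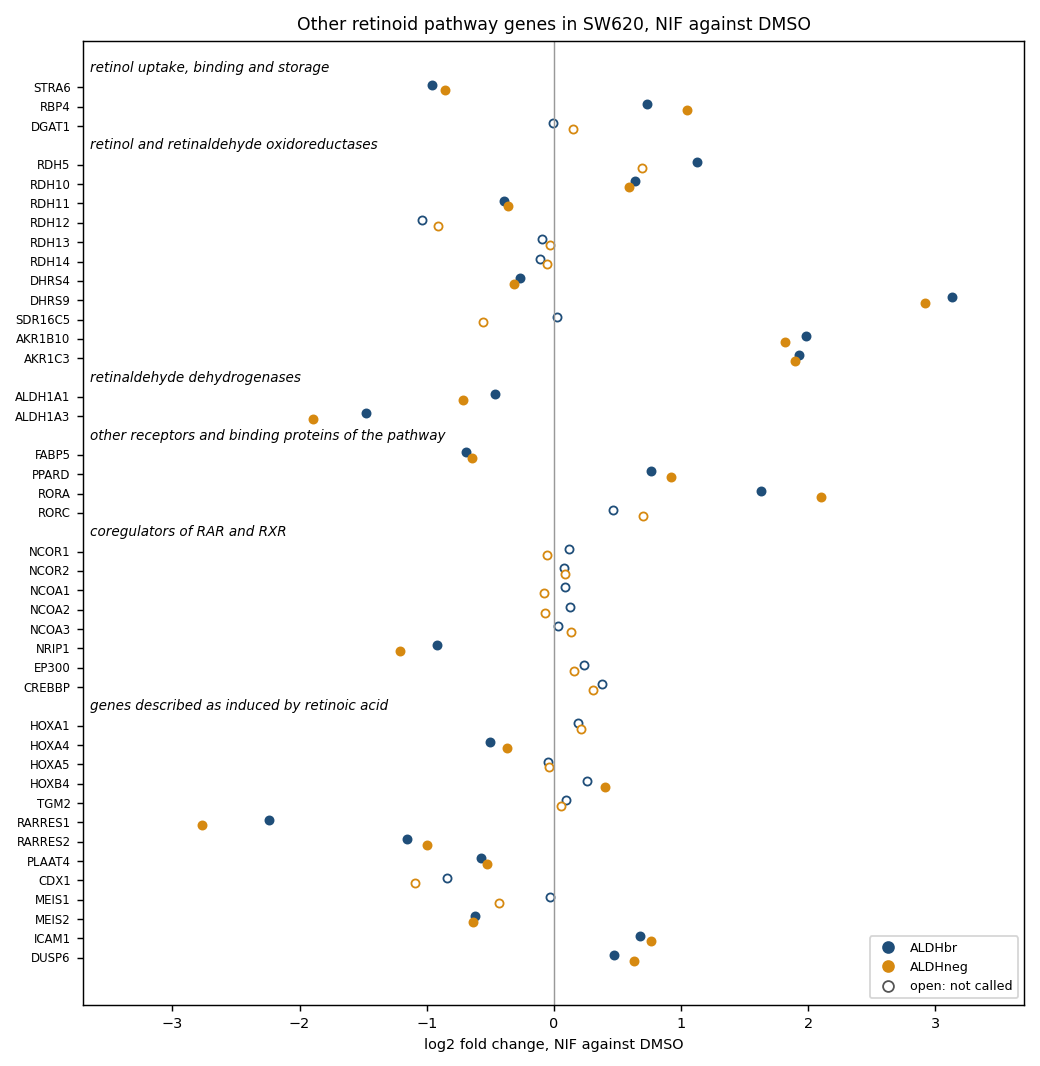
Log2 fold change of NIF against DMSO in SW620 for each tested gene of the 6 retinoid lists (41 genes, in rows by list), in ALDHbr (blue) and ALDHneg cells (orange); filled points were called at an adjusted p under 0.05 by edgeR. DHRS9, AKR1B10 and AKR1C3 lie farthest to the right apart from RORA, and RARRES1 and ALDH1A3 farthest to the left.

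In SUM159, NIF changed 2 of the 34 list genes in ALDHbr cells, AKR1C3, a further aldo-keto reductase (0.64 ± 0.13, adjusted p = 0.0149, edgeR), and FABP5 (0.36 ± 0.09, adjusted p = 0.0321, edgeR), both higher, beside 3.16% of all genes tested. In ALDHneg cells edgeR called 0, beside 3.30% of all genes tested. At an unadjusted p under 0.05 in edgeR there were 9 of the 34, beside 2510 of all 14953 genes tested. No SUM159 value of the list genes here used the replicate block that the pairing of these libraries calls for. With the block, calls for NIF over all genes went from 473 to 1994 in ALDHbr and from 493 to 1970 in ALDHneg cells. 

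Between the populations of SUM159 under DMSO, 6 of 34 list genes were higher and 6 lower in ALDHbr cells, where 23.0% of all genes tested were called. This comparison and the one under NIF used no replicate block. Besides ALDH1A1 itself (8.11 on the log2 scale), the higher ones were ALDH1A3 (1.60), AKR1C3 (1.16), DUSP6 (1.06), RDH10, a retinol dehydrogenase (0.45), and NRIP1 (0.30). ALDH1A3 was low in this line, with 63 reads in all ALDHbr against 22 in all ALDHneg libraries under DMSO (0.58 against 0.19 CPM). TGM2, a transglutaminase and long-used marker of retinoic acid response (-1.38), ALDH8A1 (-1.72), the corepressor NCOR1 (-0.77), the homeobox gene HOXA4 (-0.69) and the coactivator NCOA1 (-0.30) were among the lower ones. The ALDH8A1 value rests on 26 reads in ALDHbr against 92 in ALDHneg cells, with 3 to 20 reads per ALDHbr library. ALDH1A3 passed the filter on low counts in this line mainly through ALDHbr libraries, and ALDH8A1 mainly through ALDHneg libraries. Their tests are therefore not independent of those libraries being high, and the counts of higher and lower genes include both. Under NIF, where 21.9% of all genes were called, 5 were higher and 3 lower, with ALDH1A1 (8.64), ALDH1A3 (2.41), AKR1C3 (1.34) and DUSP6 (0.54) again higher and TGM2 (-1.54) and NCOR1 (-0.89) again lower, joined by RDH13 (0.24) and RDH11 (-0.23). ALDH1A3 then rested on 28 reads in ALDHbr against 5 in ALDHneg cells.

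In SW620 under DMSO, where 11.3% of all genes tested were called, 5 of 41 list genes were higher in ALDHbr cells, AKR1B10 (0.56), ALDH1A1 (0.54), RBP4 (0.53), RARRES1 (0.52) and FABP5 (0.32), and 4 were lower, TGM2 (-1.01), DHRS9 (-0.67), STRA6 (-0.65) and ALDH1A3 (-0.36). ALDH1A1 and TGM2 were the list genes called in the same direction in both lines under DMSO. TGM2 stood at 43.8 ± 7.03 CPM in ALDHbr against 114 ± 14.1 CPM in ALDHneg cells of SUM159 and at 98.7 ± 8.72 against 199 ± 7.56 CPM in SW620. Under NIF, where 6.67% of all genes were called, 3 SW620 list genes were higher, RARRES1 (1.05), ALDH1A1 (0.80) and AKR1B10 (0.73), and 6 were lower, RORA (-1.29), TGM2 (-0.97), STRA6 (-0.75), DHRS9 (-0.46), PPARD (-0.39) and DUSP6 (-0.26). RORA rested on 63 reads in ALDHbr against 181 in ALDHneg cells.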

How the data were processed

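RNA-seq covered both cell lines, sorted by ALDH activity after 30 h with NIF or DMSO. The study describes 3 independent replicates per group, which the labels number. The deposited values are the authors' raw counts of reads by gene, in 1 table of 24 libraries and 28307 genes, 4579 of them without a count. The library kit was stranded; the submitters' processing notes name FastQC, STAR and GRCh38, and the counting tool, annotation and strand setting are not given in the sources used here. Reads shared by overlapping genes may therefore be misassigned. Replicates differed by more than sampling noise (chi-square per gene 1.97 to 46.1 over 24 pairs). The highest values were those of SW620 ALDHbr DMSO replicate 2 against replicates 1 and 3 (46.1 and 35.9), which gave 6.52 between them. Without replicate 2, NIF calls over all genes in SW620 ALDHbr cells went from 6038 to 7136.

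The tests were run with edgeR 4.0.16 under R 4.3.3 (filterByExpr by group, TMM, quasi-likelihood F test, Benjamini-Hochberg adjustment over all genes tested, threshold 0.05). The 12 libraries of each line were fitted together, and all 24 for comparisons of the lines. These fits held no replicate block, which was an alternative. Intervals of fold changes are 95%. Log2 CPM used a prior count of 2. Intervals on counts cover counting error only. CPM per kb used lengths of the reference transcript or of all exons from a GENCODE annotation lifted to an earlier human build. Promoters and gene positions are those of RefSeq, GRCh38.p14.

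The members, the pathway lists and the tests were chosen with earlier results of these data known. Named were all members, and in each list the called genes with the highest and lowest log2 fold changes. Libraries of different groups with the same replicate number deviated together in SUM159 (r 0.125 to 0.451 over 0.1 in 18 of 18 pairs), so that they count as paired, but not in SW620 (r -0.278 to 0.214). Alternatives were a fit in DESeq2 1.42.0, scaling by RLE or by library size, no count filter, at least 10 counts in every library, a replicate block, each library left out, only the groups compared, and all 24 libraries in 1 fit. The steps were tested on simulated data.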

Additional observations from a re-analysis of the deposited data

Results flagged for a closer look

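These 8 differences are listed because the effect of NIF differed between SW620 and SUM159 by a test of the difference itself, on the log2 scale as SW620 minus SUM159. In ALDHbr cells they were CYP26B1 (-3.10), DHRS3 (-0.92) and RARG (-0.28). In ALDHneg cells they were CYP26A1 (-3.96), CYP26B1 (-1.85), DHRS3 (-0.61), CRABP2 (-0.47) and RARG (-0.27). CYP26B1 in ALDHbr cells, CYP26A1, and DHRS3 in both populations kept their call in every alternative that gave a value. For CYP26A1 this is no independent support, since the gene passed the filter on low counts only through SW620 DMSO libraries, where it is high. RARG lost it in 6 of 18 alternatives in ALDHbr and 8 of 18 in ALDHneg cells, CRABP2 in 3 of 18 and CYP26B1 in ALDHneg cells in 7 of 17. The line and the tissue of origin cannot be told apart, since each tumour type is a single line.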

How the results depend on the processing

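Of 38 called values, 28 kept their call and direction in every alternative that gave a value, 10 lost the call in at least 1, and 0 reversed. The called CYP26A1 and CYP26B1 values in SW620 and between the lines had no value in at least 1 alternative, the genes having too few counts there. Over 583 alternative values, 535 stayed on the same side of the threshold. With the replicate as a block, which the pairing of the SUM159 libraries calls for, members called under NIF went from 0 to 1 in SUM159 ALDHbr and from 0 to 1 in SUM159 ALDHneg cells. In SW620 the libraries share only a number; there the block ended the RXRA call between populations under DMSO (adjusted p = 0.0575, edgeR) and no other called value. Only the groups compared gave 3 members in place of 5 for NIF in SW620 ALDHbr cells. DESeq2 gave 2 in place of 1 for the SW620 populations under NIF, the added gene being RXRA. For the SW620 populations under DMSO, leaving out a library gave 1 to 4 members in place of 3. For the difference in NIF effect between lines in ALDHneg cells, at least 10 counts in every library gave 3 in place of 5, CYP26A1 and CYP26B1 having too few counts to be tested, and leaving out a library gave 2 to 5.

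Over all genes, calls for NIF in SUM159 ran from 222 to 1994 in ALDHbr (473 as reported) and from 192 to 1970 in ALDHneg cells (493), the highest with the block. Calls between SUM159 populations reached 5388 under DMSO (3432) and 5270 under NIF (3281), again with the block. Between SW620 populations they ran from 712 to 5487 under DMSO (1577) and from 494 to 1189 under NIF (931). Library-size scaling moved the share of higher calls from 51.1% to 61.4% between SW620 populations under NIF and from 53.2% to 40.9% for the line difference in ALDHneg cells. The interactions reached 6 in SUM159 (0) and 29 in SW620 (1). CYP26A1, CYP26B1, RARB and CRABP1 are limited by depth, with at most 186 reads in a library.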

Other observations

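Some genes followed a member closely over the 12 libraries of a line, by Pearson r of log2 CPM, given as a description over libraries that share groups and, in SUM159, replicate numbers. In SW620, DHRS3 was most like FAH (r = 0.994), DCPS (0.994) and FDPS (0.992), the last an enzyme of isoprenoid synthesis. RARG was most like TGFBI (0.988), SCNN1A (0.983) and TUBB (0.979), and CRABP2 most like CRIP1 (0.985), BST2 (0.980) and TEDC2 (0.978). RXRA was most like PHF19 (0.981), B3GALT5 (0.981) and APOBEC3C (0.979), and RARA most like CAMK2G (0.941), PGM2L1 (0.932) and PKP4 (0.931). The low-count genes had weaker partners, PHTF2 (0.954), CCSAP (0.924) and SCYL3 (0.911) for CYP26A1 and ARL6IP6 (0.905), TADA1 (0.874) and TP53INP2 (0.859) for CYP26B1.

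In SUM159, RXRA was most like CD82 (0.990), MORC4 (0.987) and S100A2 (0.987), and DHRS3 most like FOXQ1 (0.988), RTN4RL1 (0.987) and C16orf74 (0.977). CRABP2 was most like NPL (0.981), TAF7 (0.979) and CYB5D1 (0.974), RARG most like RHBDL3 (0.964), CACNB3 (0.962) and PAMR1 (0.961), and CYP26B1 most like CDR2L (0.923), SPRY1 (0.922) and ITGA7 (0.907). No gene was named in both lines for the same member.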
